A study of Caenorhabditis elegans with 12 samples.

Results

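The comparison described here set larvae of the itr-1(sa73) mutant of Caenorhabditis elegans against larvae of the laboratory wild type N2, across every gene that reached 1 TPM in 3 or more of the 6 libraries of both strains. This filter kept 14418 of the 46926 genes in the table, and 6 of the study's 12 libraries entered the comparison itself. The other 6 libraries were of the nuo-6(qm200) mutant, which carries a changed complex I subunit, and of the nuo-6(qm200);itr-1(sa73) double mutant, and they served to read the same mutation in a second background. Polyadenylated RNA was taken from whole animals at the fourth larval stage (L4), with 3 biological replicates of each strain. Every culture began with bleach-synchronised animals on HT115 bacteria that carried an empty vector, and the bacteria and vector were shared by all groups. Each genotype is 1 strain, so that other sequence differences between the strains cannot be told apart from the named mutations. Because whole animals were measured, fewer cells of a type and less RNA per cell cannot be told apart either. A difference in age within L4 between the strains was not tested and cannot be told apart from other effects of the genotype. The study's title concerns InsP3 receptor signalling in the long life brought by mitochondrial stress, and this comparison shows which transcripts differ in a strain that carries the receptor mutation without the mitochondrial one.

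The gene itr-1 encodes the inositol trisphosphate (InsP3) receptor, a calcium channel of the endoplasmic reticulum that opens when phospholipase C has released InsP3 from the membrane. In the worm it drives the calcium waves of the intestine that time the defecation cycle, the contractions of the gonadal sheath and spermatheca that move oocytes, and it acts in the pharynx, the epidermis and the embryo. The sa73 allele is known as a partial loss of function with a slow defecation cycle, and it changes a single amino acid, so that the transcript level does not check the strain label.

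Levels are in TPM, a length-corrected share of a library's transcripts that keeps no read depth, so that no counting error can be given. A change is a log2 fold ± SE on the log2(TPM + 1) scale, itr-1 minus N2, from a limma model over all 12 libraries, and folds of genes at low TPM come out too small on it. A gene rose or fell where limma's Benjamini-Hochberg adjusted p was under 0.05. A gene under 1 TPM in every library of 1 strain passed the filter only through the other strain. Such a gene could differ in 1 direction alone, so its direction is no separate result. Between 13879 and 14902 genes reached 1 TPM in a library, and libraries of 1 strain correlated at 0.9756 to 0.9933 across genes. The replicates numbered 2 stood apart within both strains, with the highest levels of oocyte and yolk genes. An oocyte score, meant as a measure of stage, was taken over 29 genes of oocytes and early embryos as the average of log2(TPM + 1). It was 4.87, 5.84 and 4.72 in itr-1 larvae and 3.32, 4.13 and 3.52 in N2 larvae, and the groups did not overlap. Summed transcripts of ribosomal RNA genes took 0.246%, 0.354% and 0.528% of itr-1 libraries, against 1.42%, 0.92% and 0.894% of N2 libraries.

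Transcript levels of itr-1 itself (WBGene00002173, chromosome IV, 7675174 to 7696930 in build WBcel235) were 31.8, 25.4 and 23.9 TPM in itr-1 larvae and 17.5, 22.9 and 23.2 TPM in N2 larvae. The mutant libraries were the 3 highest of the 6. The fold of 0.34 ± 0.12 passed narrowly (limma adjusted p = 0.0499), and it did not pass under median-of-ratios scaling (0.18) or in several of the other alternatives.

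Of the 14418 genes, 4292 rose (29.8%) and 1701 fell (11.8%), and the libraries of the strains did not overlap for 7437 (51.6%). At least 2-fold changes were fewer, with 970 rises (6.73%) and 216 falls (1.5%). The median fold of all genes was 0.14, and scaling the libraries by their median ratios moved it by -0.14 and gave 2600 rises (18%) and 3145 falls (21.8%). A model with the oocyte score as a term called 1454 rises and 561 falls. Because the score did not overlap between the strains, this term cannot be fully separated from the strain. A call lost with it need not mean a smaller fold. For each gene list below, the count is therefore given with those under median-of-ratios scaling and with the oocyte score as a term, rises first. Without N2 replicate 1 there were 2792 rises.

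**Figure D1:**
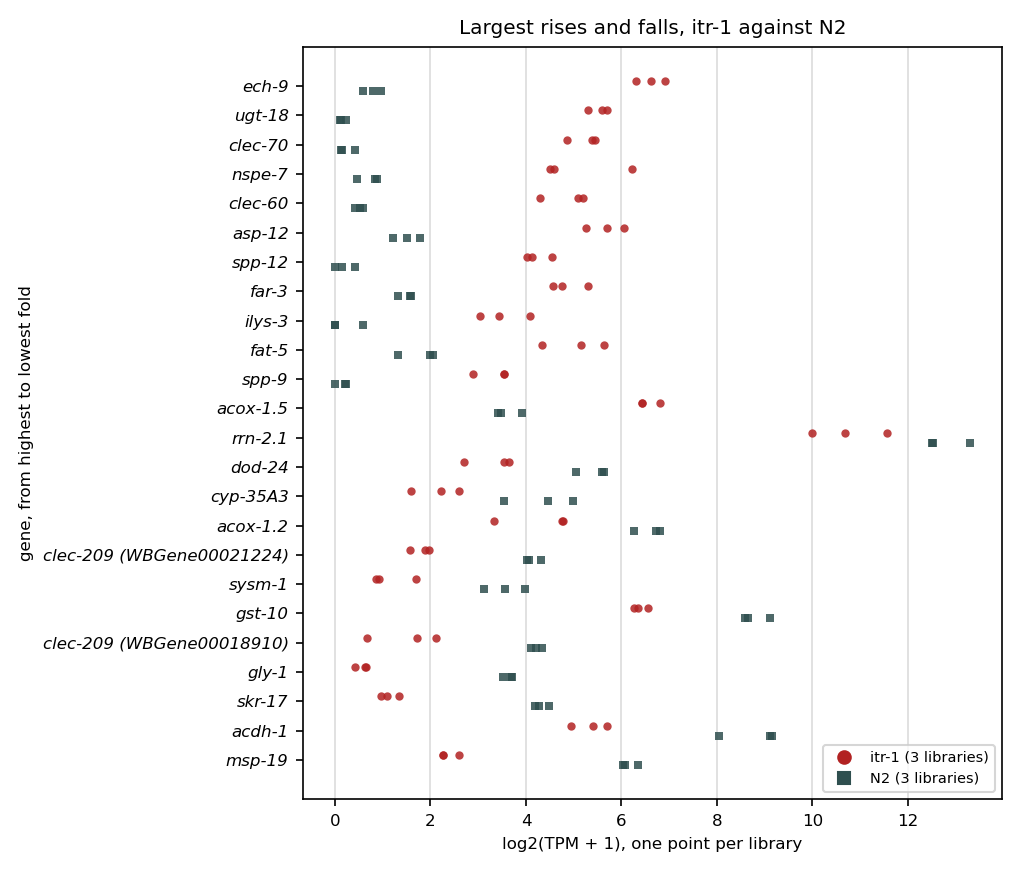
Levels of the 12 genes with the largest rises and the 12 with the largest falls in itr-1 against N2, among genes with a standard name and at most 2 of a family, as log2(TPM + 1) on the horizontal axis, with 1 point for each library (circles: itr-1, squares: N2). For all 24 genes the 3 itr-1 libraries lie apart from the 3 N2 libraries, and ech-9, at the top, has a log2 fold of 5.82.

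The largest rises lay in genes of fat metabolism, conjugation and defence. An enoyl-CoA hydratase of fat breakdown is encoded by ech-9 (WBGene00001158, chromosome IV, 10233310 to 10235329), which held 119, 97.3 and 77.8 TPM in itr-1 larvae, against 0.738, 0.963 and 0.504 TPM in N2 larvae. It was thus close to unexpressed in N2 and well expressed in every itr-1 library, with a log2 fold of 5.82 ± 0.21 (limma adjusted p = 6.28e-08). A conjugation enzyme gene, ugt-18, of the UDP-glucuronosyltransferases that couple sugars to small molecules, was at 51.2, 47.2 and 38.1 TPM in itr-1 larvae and 0.087, 0.168 and 0.07 TPM in N2 larvae (5.38 ± 0.16). Its N2 libraries were all under 1 TPM, with no overlap. The C-type lectin gene clec-70 was at 41, 28.1 and 42.6 TPM in itr-1 larvae and at 0.11, 0.099 and 0.337 TPM in N2 larvae (5.0 ± 0.19), and clec-60, of the same carbohydrate-binding family, at 33.1, 18.6 and 35.5 TPM in itr-1 larvae and 0.437, 0.33 and 0.508 TPM in N2 larvae (4.35 ± 0.19). Both lectin genes were under 1 TPM in every N2 library and above 18 TPM in every itr-1 library, so that they passed the filter only through itr-1. The aspartyl protease gene asp-12 stood at 65.8, 37.1 and 50.7 TPM in itr-1 larvae and 1.83, 1.33 and 2.42 TPM in N2 larvae (4.17 ± 0.2).

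Other large rises included genes for secreted peptides and lipid carriers. The saposin-like gene spp-12, of a family of membrane-active antimicrobial proteins, had 22.2, 16.3 and 15.2 TPM in itr-1 larvae and 0.102, 0.338 and 0 TPM in N2 larvae (4.04 ± 0.24). The related spp-9 had 10.6, 6.4 and 10.6 TPM in itr-1 larvae and 0.156, 0.173 and 0 TPM in N2 larvae (3.17 ± 0.2), and the invertebrate lysozyme gene ilys-3 had 15.9, 7.23 and 9.74 TPM in itr-1 larvae and 0, 0.494 and 0 TPM in N2 larvae (3.32 ± 0.31). N2 libraries were at or near 0 for these 3 genes, so the sizes of these folds depend on the pseudocount. The same holds for ech-9, ugt-18, clec-70 and clec-60, all under 1 TPM in N2, and for the order of the largest rises. The fatty acid and retinol binding protein gene far-3 rose by 3.38 ± 0.17, the palmitoyl-CoA desaturase gene fat-5 by 3.25 ± 0.34 and nspe-7, of a nematode-specific peptide family, by 4.37 ± 0.42. The levels of nspe-7 were 73.5, 21.7 and 23 TPM in itr-1 larvae and 0.379, 0.841 and 0.796 TPM in N2 larvae, and the first itr-1 library stood above the other itr-1 libraries.

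The largest falls of named genes were those of a sperm gene, the propionate gene acdh-1 and an adaptor of protein breakdown. The major sperm protein gene msp-19 had 3.79, 5.02 and 3.79 TPM in itr-1 larvae, against 66.5, 80.9 and 64.4 TPM in N2 larvae (-3.78 ± 0.3). It is 1 of a family of near-identical copies and lies in a stretch of chromosome IV described further on. The Skp1-related gene skr-17, of the adaptors of ubiquitin ligases, had 1.53, 1.13 and 0.958 TPM in itr-1 larvae and 17.3, 21.2 and 18.3 TPM in N2 larvae (-3.18 ± 0.13). The glycosylation gene gly-1 had 0.343, 0.539 and 0.564 TPM in itr-1 larvae, against 10.5, 12 and 11.9 TPM in N2 larvae (-3.07 ± 0.12). Neither gene overlapped between the strains, and both were below 2 TPM in every itr-1 library. The gene sysm-1 had 0.897, 0.811 and 2.23 TPM in itr-1 larvae, against 10.9, 14.7 and 7.65 TPM in N2 larvae (-2.39 ± 0.27). In the annotation 2 entries bear the name clec-209, and they were at -2.71 ± 0.33 and -2.33 ± 0.17, with reads that their copies may share. The CUB-domain gene dod-24 stood at 10.6, 5.52 and 11.5 TPM in itr-1 larvae and 49, 31.9 and 47 TPM in N2 larvae (-2.13 ± 0.25). The 5.8S ribosomal RNA gene rrn-2.1 was at -2.03 ± 0.51, in libraries selected for polyadenylated RNA.

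**Figure D2:**
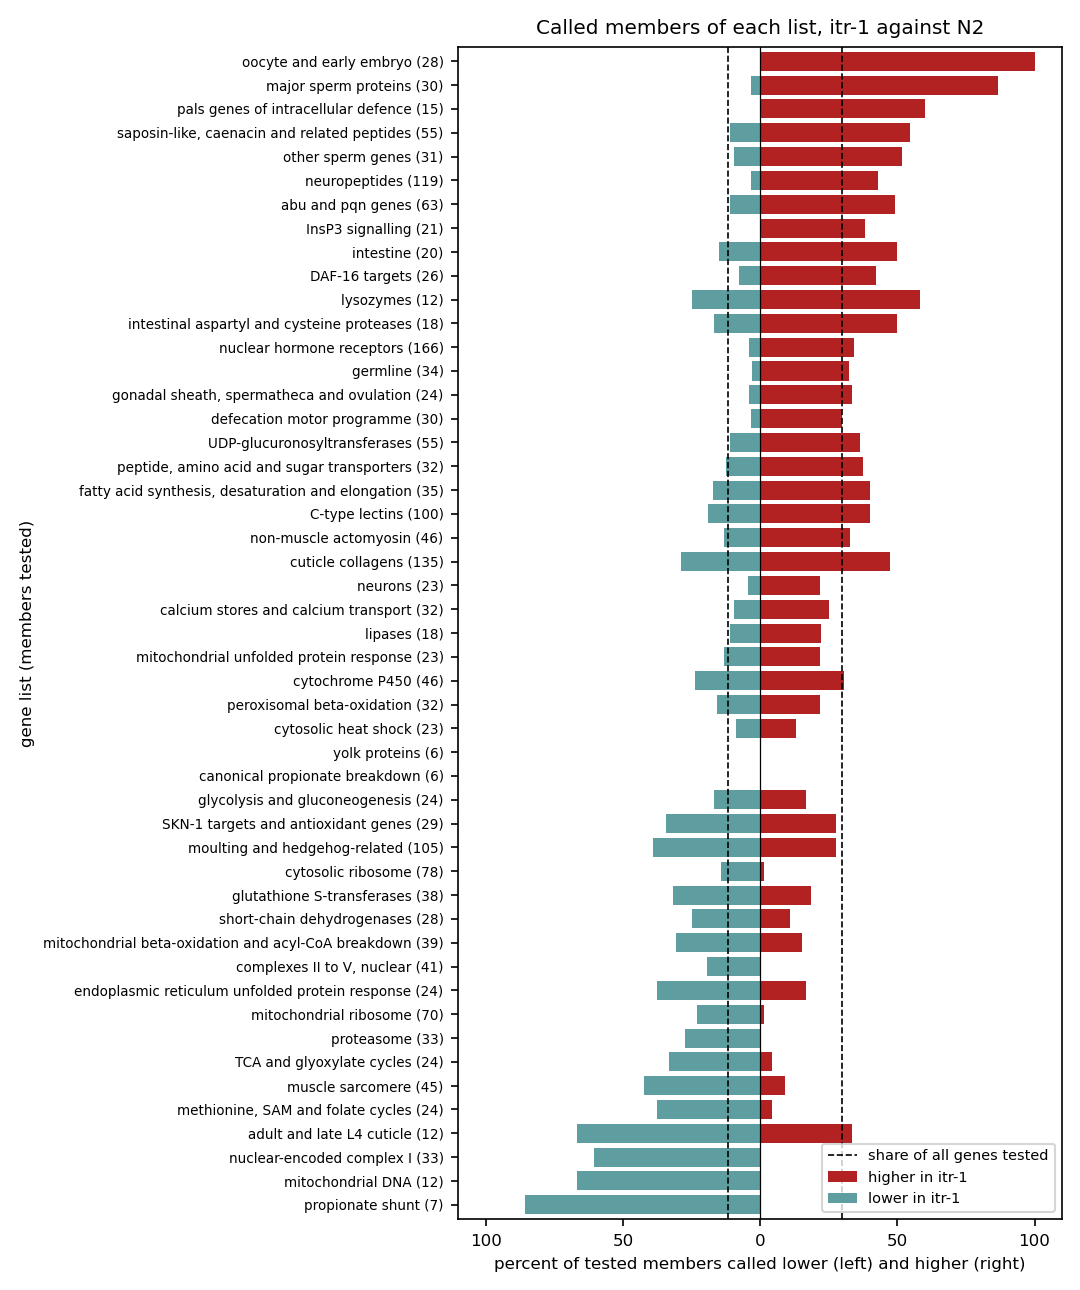
Percent of tested members of each gene list that were called higher in itr-1 (right of 0) and lower in itr-1 (left of 0) against N2, with the number tested in brackets. The dashed lines mark the shares of all genes tested, 29.8% higher and 11.8% lower; oocyte genes and major sperm proteins lie far to the right, and propionate shunt, mitochondrial DNA and complex I genes to the left.

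Genes of the InsP3 pathway changed by small amounts, and tpa-1 had the largest fold among those called. Of 21 genes, 8 rose and 0 fell (2 and 2 with median-of-ratios scaling, 3 and 0 with the oocyte score). The protein kinase C gene tpa-1, which answers the diacylglycerol made beside InsP3, had 22.5, 20.3 and 23.2 TPM in itr-1 larvae and 12.4, 12.9 and 11.9 TPM in N2 larvae (0.78 ± 0.07, limma adjusted p = 3.49e-05). Its 3 itr-1 libraries lay well above those of N2. The phospholipase C-beta gene egl-8 was at 0.29 ± 0.06 and lfe-2, whose InsP3 kinase removes the ligand, at 0.27 ± 0.06. Neither egl-8 nor lfe-2 remained called with median-of-ratios scaling (0.13 and 0.11). The share that rose was 38.1%, against 29.8% of all genes, and the median of the list was 0.19, against 0.14 over all genes.

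Calcium stores and transport gave 8 rises and 3 falls among 32 genes (2 and 9 with median-of-ratios scaling, 4 and 1 with the oocyte score). These shares, 25% and 9.4%, lay near those of all genes, of which 29.8% rose and 11.8% fell. The calsequestrin gene csq-1, for the calcium-binding protein of the muscle reticulum, had 228, 227 and 229 TPM in itr-1 larvae, against 298, 302 and 290.0 TPM in N2 larvae (-0.38 ± 0.05). The itr-1 values lay within 3 TPM of each other and far below those of N2. In contrast gtl-1, an intestinal TRPM channel gene that shapes the defecation rhythm, had 18.9, 15.7 and 14.5 TPM in itr-1 larvae and 8.38, 9.48 and 7.09 TPM in N2 larvae (0.9 ± 0.11). Among 30 genes of the defecation motor programme, 9 rose and 1 fell (4 and 3 with median-of-ratios scaling, 8 and 0 with the oocyte score). The 30% that rose was near the 29.8% of all genes. The intestinal sodium-proton exchanger gene nhx-2 stood at 59.7, 55.8 and 57.7 TPM in itr-1 larvae and 36.8, 38.5 and 38 TPM in N2 larvae (0.6 ± 0.08). The microsomal triglyceride transfer gene dsc-4, whose loss alters defecation timing in clk-1 mutants, was at 0.51 ± 0.08, again with no overlap. Of 24 genes of the gonadal sheath and spermatheca, 8 rose and 1 fell (5 and 1 with scaling, 3 and 0 with the oocyte score). The 33.3% that rose lay near the 29.8% of all genes. The phospholipase C-epsilon gene plc-1 was at 0.36 ± 0.08, a call lost with quantile normalization (0.12). Its call was also lost with the oocyte score as a term, although its fold there was no smaller (0.38, limma adjusted p = 0.065).

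Most genes of the propionate shunt fell. When vitamin B12 is scarce, worms break propionate down through this mitochondrial side path, and the nuclear receptors NHR-10 and NHR-68 switch its genes on. Of its 7 genes, 6 fell and 0 rose, with the same counts under median-of-ratios scaling, while the oocyte score as a term gave 0 rises and 5 falls. The acyl-CoA dehydrogenase gene acdh-1 (WBGene00016943, chromosome I, 6497436 to 6499560) had 50.9, 29.7 and 41.5 TPM in itr-1 larvae, against 551, 262 and 568 TPM in N2 larvae (-3.42 ± 0.32, limma adjusted p = 2.68e-05). The second replicate was the lowest in both strains, yet every itr-1 library was far below every N2 library. The hydroxypropionate-oxoacid transhydrogenase gene hphd-1 was at 42, 35.6 and 40.4 TPM in itr-1 larvae and 180.3, 117 and 184 TPM in N2 larvae (-1.98 ± 0.15). The enoyl-CoA hydratase gene ech-6 had 167, 158 and 161 TPM in itr-1 larvae, against 352, 272 and 349.7 TPM in N2 larvae (-0.99 ± 0.1). These 3 enzyme genes kept the strains apart in every library. Of genes named after their values were seen, the hydrolase gene hach-1 was at -0.71 ± 0.07 and the dehydrogenase gene alh-8 at -0.57 ± 0.06. The regulator genes were also named after their values were seen, and nhr-68 had 15.5, 9.43 and 12.1 TPM in itr-1 larvae and 33.6, 23.9 and 37.6 TPM in N2 larvae (-1.29 ± 0.2), a call lost with the oocyte score as a term (-0.82). The other regulator gene, nhr-10, overlapped between the strains at -0.17 ± 0.11 (limma adjusted p = 0.257). For 6 of the 7 genes the 3 itr-1 libraries were the lowest of all 12, which held for 3.6% of all genes.

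The B12-dependent canonical path of propionate breakdown gave no calls. None of its 6 genes was called by limma, 0 of them had an unadjusted p under 0.05, and the first by adjusted p, the cobalamin adenosyltransferase gene mmab-1, was at -0.1 ± 0.05 (adjusted p = 0.151). With median-of-ratios scaling 3 of them fell, mmab-1 included (-0.26). Methionine, SAM and folate cycle genes, of which the methionine synthase step shares the B12 cofactor, gave 1 rise and 9 falls among 24 (0 and 13 with scaling, 1 and 5 with the oocyte score). Of these 24 genes 37.5% fell, against 11.8% of all genes. The phosphoethanolamine methyltransferase gene pmt-2, a large user of SAM, had 212, 205 and 211 TPM in itr-1 larvae, against 345, 334 and 351 TPM in N2 larvae (-0.71 ± 0.05). The serine hydroxymethyltransferase gene mel-32 was at 195, 184 and 185 TPM in itr-1 larvae and 266, 263 and 279 TPM in N2 larvae (-0.51 ± 0.04), and the glycine cleavage gene gcst-1 at -0.55 ± 0.06. All 3 genes were lower in every itr-1 library.

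Peroxisomal beta-oxidation held large changes in single genes, while most of its genes were not called. This pathway shortens very long fatty acids and the side chains of ascaroside pheromones, and its first step is taken by acyl-CoA oxidases. Of 32 genes, 7 rose, 5 fell and 20 were not called, shares near those of all genes, of which 29.8% rose and 11.8% fell (6 and 7 with scaling, 7 and 2 with the oocyte score). Beside ech-9, the oxidase gene acox-1.5 had 111, 84.6 and 85.7 TPM in itr-1 larvae, against 9.69, 14.2 and 10.2 TPM in N2 larvae (2.95 ± 0.15). Its relative acox-1.2 went the other way, with 25.8, 9.03 and 26.5 TPM in itr-1 larvae and 75.6, 105 and 111 TPM in N2 larvae (-2.32 ± 0.35), although that call was lost with the oocyte score as a term (-1.65). The ABC transporter gene pmp-5, also on this list, was at 14, 14.3 and 14.1 TPM in itr-1 larvae and 50.3, 34.1 and 58.2 TPM in N2 larvae (-1.65 ± 0.18). Its itr-1 libraries lay within 1 TPM of each other and below all of N2.

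In the mitochondrial branch of fat breakdown, 6 genes rose and 12 fell among 39 (5 and 21 with scaling, 3 and 3 with the oocyte score). The acyl-CoA synthetase gene acs-17 was at 0.75 ± 0.1 and the methylcrotonyl-CoA carboxylase gene mccc-2, of leucine breakdown, at -0.28 ± 0.04. Fatty acid synthesis and desaturation gave 14 rises and 6 falls among 35 (7 and 10 with scaling, 3 and 1 with the oocyte score). The desaturase gene fat-5 had 48.3, 19.2 and 34.8 TPM in itr-1 larvae, against 1.5, 2.96 and 3.17 TPM in N2 larvae. The lipid droplet dehydrogenase gene dhs-3 fell to 109.7, 94.9 and 111 TPM in itr-1 larvae, against 171, 157 and 183 TPM in N2 larvae (-0.69 ± 0.08). The Mediator subunit gene mdt-15, which activates desaturase genes, was at 0.36 ± 0.06. Lipase genes gave 4 rises and 2 falls among 18 (3 and 4 with scaling, 4 and 0 with the oocyte score), with lips-17 at 2.18 ± 0.17 and the lysosomal lipase gene lipl-1 at 2.02 ± 0.32. Of lipase genes 22.2% rose and 11.1% fell, no more than the 29.8% and 11.8% of all genes. The shares were 15.4% and 30.8% in the mitochondrial branch and 40% and 17.1% in fatty acid synthesis and desaturation.

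The detoxification families each held rises and falls, and of all genes 29.8% rose and 11.8% fell. Among UDP-glucuronosyltransferases 20 rose and 6 fell of 55 (15 and 11 with scaling, 14 and 4 with the oocyte score), and ugt-53 was at -1.01 ± 0.11. The 10.9% that fell lay near the share of all genes, and 36.4% rose. Cytochrome P450 genes counted 14 rises and 11 falls among 46 (12 and 12 with scaling, 12 and 7 with the oocyte score). The 30.4% of P450 genes that rose lay near the share of all genes, and 23.9% fell. In this family cyp-32A1 had 4.66, 4.86 and 5.11 TPM in itr-1 larvae and 1.02, 1.19 and 1.1 TPM in N2 larvae (1.48 ± 0.09), while cyp-14A2 had 0.473, 0.562 and 0.666 TPM in itr-1 larvae, against 3.55, 5.4 and 5.37 TPM in N2 larvae (-1.87 ± 0.13). A xenobiotic-inducible member, cyp-35A3, was at -2.18 ± 0.4. The family thus had large changes both ways. Glutathione S-transferases gave 7 rises and 12 falls among 38 (4 and 15 with scaling, 3 and 6 with the oocyte score). The widely used oxidative stress reporter gene gst-4 had 32, 41.9 and 35.6 TPM in itr-1 larvae, against 156, 131 and 122 TPM in N2 larvae (-1.87 ± 0.13). The related gst-10 had 79.8, 76.2 and 92.8 TPM in itr-1 larvae, against 403, 385 and 555 TPM in N2 larvae (-2.4 ± 0.15), and gstk-1, of the kappa class, was at -1.31 ± 0.14. All 3 transferase genes had their highest itr-1 library below their lowest N2 library. The list of SKN-1 targets and antioxidant genes, which shares gst-4, gst-10 and gst-13 (-1.25 ± 0.14) with them, gave 8 rises and 10 falls among 29 (4 and 13 with scaling, 6 and 5 with the oocyte score). For 8 of these 29 genes the itr-1 libraries were the lowest of all 12, against 3.6% of all genes. Short-chain dehydrogenases gave 3 rises and 7 falls among 28 (2 and 9 with scaling, 2 and 5 with the oocyte score), with dhs-25 at -1.04 ± 0.06.

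Many defence genes rose, and their counts stand beside the 29.8% of all genes that rose. Of 100 C-type lectins, 40 rose and 19 fell (33 and 20 with scaling, 29 and 8 with the oocyte score), and clec-71 was at 1.65 ± 0.09. Saposin-like, caenacin and related peptide genes gave 30 rises and 6 falls among 55 (28 and 8 with scaling, 29 and 4 with the oocyte score), with a median of 0.79, against 0.14 over all genes. The fungus-induced peptide relative fipr-9 had 12.7, 14.4 and 11.3 TPM in itr-1 larvae and 2.37, 2.62 and 1.35 TPM in N2 larvae (2.16 ± 0.19). Lysozymes gave 7 rises and 3 falls among 12 (5 and 3 with scaling, 4 and 3 with the oocyte score). The falls were those of lys-1, lys-2 and, named after its value was seen, ilys-5, with lys-1 at 423, 435 and 455 TPM in itr-1 larvae and 607, 639 and 577 TPM in N2 larvae (-0.47 ± 0.05) and lys-2 at -0.87 ± 0.09. The pals genes, many of which answer intracellular infection, gave 9 rises and 0 falls among 15 (7 and 0 with scaling, 7 and 0 with the oocyte score). Of them pals-6 had 7.82, 10.4 and 8.76 TPM in itr-1 larvae, against 0.542, 0.953 and 0.591 TPM in N2 larvae (2.56 ± 0.21), and pals-14 was at 1.72 ± 0.18. Both pals genes stayed under 1 TPM in every N2 library, so that they passed the filter only through their itr-1 libraries. The filter kept 100 of 240 C-type lectins, 55 of 89 peptide genes, 12 of 16 lysozymes and 15 of 38 pals genes.

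Several genes of digestion in the intestine also rose, among them the aspartyl proteases, beside the 29.8% of all genes that rose. Aspartyl and cysteine protease genes gave 9 rises and 3 falls among 18 (8 and 3 with scaling, 9 and 2 with the oocyte score). The abundant aspartyl protease gene asp-6 had 2316, 1822 and 2232 TPM in itr-1 larvae, against 979.7, 927 and 914 TPM in N2 larvae (1.17 ± 0.1). Its relative asp-5 was at 0.95 ± 0.07, whereas the cathepsin B gene cpr-6 fell to 533, 474 and 514 TPM in itr-1 larvae, against 768, 843 and 859 TPM in N2 larvae (-0.7 ± 0.07). Markers of the intestine gave 10 rises and 3 falls among 20 (5 and 5 with scaling, 8 and 2 with the oocyte score), with the intermediate filament gene ifb-2 at 0.81 ± 0.08. Their summed share of transcripts was 0.786%, 0.723% and 0.813% in itr-1 libraries and 0.669%, 0.669% and 0.658% in N2 libraries, with none of the 20 markers at 0. The part of this share in the defence and protease results was not tested. Peptide, amino acid and sugar transporters gave 12 rises and 4 falls among 32 (11 and 6 with scaling, 7 and 1 with the oocyte score), with the sugar transporter gene swt-7 at 0.92 ± 0.08 and slcf-2 at -0.98 ± 0.11.

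Transcripts for the respiratory chain were lower by small amounts in many genes. Of all genes 29.8% rose and 11.8% fell. Of 33 nuclear-encoded complex I genes, 20 fell and 0 rose (0 and 29 with scaling, 0 and 1 with the oocyte score). The subunit gene ndub-3 had 367, 356 and 384 TPM in itr-1 larvae, against 448, 438 and 449 TPM in N2 larvae (-0.27 ± 0.04), and ndub-7 was at -0.23 ± 0.05. In itr-1 the 3 libraries were the lowest of all 12 for 18 of the 33 genes, against 3.6% of all genes. Complexes II to V gave 0 rises and 8 falls among 41 (0 and 27 with scaling, 0 and 2 with the oocyte score), with the ATP synthase subunit gene hpo-18 at -0.38 ± 0.06 and the ATPase inhibitor gene mai-2 at -0.31 ± 0.06. The protein-coding genes of mitochondrial DNA gave 0 rises and 8 falls among 12 (0 and 11 with scaling, 0 and 2 with the oocyte score). Cytochrome c oxidase subunit COX3 had 3255, 3452 and 3286 TPM in itr-1 larvae and 4617, 4296 and 4594 TPM in N2 larvae (-0.43 ± 0.05), and the complex I subunit ND3 had 132, 131 and 118 TPM in itr-1 larvae and 196, 177 and 225 TPM in N2 larvae (-0.64 ± 0.09). Both were lower in every itr-1 library. Mitochondrial ribosome genes gave 1 rise and 16 falls among 70 (0 and 53 with scaling, 1 and 0 with the oocyte score), and mrps-33 was at -0.32 ± 0.07. The TCA and glyoxylate cycles gave 1 rise and 8 falls among 24 (0 and 17 with scaling, 0 and 3 with the oocyte score), with the succinyl-CoA ligase gene sucl-2 at -0.45 ± 0.07. Glycolysis gave 4 rises and 4 falls among 24 (4 and 11 with scaling, 1 and 1 with the oocyte score), with the hexokinase gene hxk-1 at 0.96 ± 0.13.

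Housekeeping and stress genes changed in both directions, and of all genes 29.8% rose and 11.8% fell. The shares that fell lay near this for cytosolic ribosomal proteins (14.1%), the mitochondrial unfolded protein response (13%) and heat shock genes (8.7%). The shares that rose in these lists, 1.3%, 21.7% and 13%, were below that of all genes. Cytosolic ribosomal proteins, which made up 25.86% to 27.42% of itr-1 transcripts and 27.24% to 28.47% of N2 transcripts, gave 1 rise and 11 falls among 78 (0 and 39 with scaling, 3 and 2 with the oocyte score). Their values included rpl-41.1 at -0.61 ± 0.07 and rpl-22 at -0.28 ± 0.06. Proteasome genes gave 0 rises and 9 falls among 33 (0 and 30 with scaling, 0 and 7 with the oocyte score), with pas-7 at -0.19 ± 0.04, so that the number of falls in these abundant complexes rested on the scaling. The mitochondrial unfolded protein response list gave 5 rises and 3 falls among 23 (1 and 10 with scaling, 0 and 0 with the oocyte score). The mitochondrial DNA-binding gene hmg-5 was at 0.35 ± 0.08, and dve-1, a transcription factor of that response, at 0.36 ± 0.09, which did not pass under median-of-ratios scaling (0.21). The endoplasmic reticulum response gave 4 rises and 9 falls among 24 (2 and 12 with scaling, 1 and 3 with the oocyte score), with the neurotrophic factor homologue manf-1 at -0.38 ± 0.04 and the translocon gene sec-61.G at -0.4 ± 0.05. Heat shock genes gave 3 rises and 2 falls among 23 (3 and 7 with scaling, 2 and 1 with the oocyte score). Among these hsp-43 had 29.2, 37.6 and 26 TPM in itr-1 larvae and 12, 14.8 and 13.5 TPM in N2 larvae (1.13 ± 0.15). The gene sip-1, a small heat shock protein of oocytes and embryos, had 335, 612 and 272 TPM in itr-1 larvae and 36, 100.2 and 50.9 TPM in N2 larvae (2.73 ± 0.41), and its second replicate was the highest of each strain, as for the oocyte genes. DAF-16 targets gave 11 rises and 2 falls among 26 (8 and 5 with scaling, 11 and 2 with the oocyte score), with the nicotinamide nucleotide transhydrogenase gene nnt-1 at 1.4 ± 0.13 and dod-17 at -0.8 ± 0.06.

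Many muscle genes fell by small amounts, beside a share of 11.8% of all genes that fell. Muscle sarcomere genes gave 4 rises and 19 falls among 45 (2 and 32 with scaling, 1 and 8 with the oocyte score), and their summed share of transcripts was 1.74%, 1.73% and 1.77% in itr-1 libraries, against 2.09%, 2.04% and 2.06% in N2 libraries. The troponin T gene tnt-2 had 709, 717 and 729 TPM in itr-1 larvae, against 979, 937 and 959 TPM in N2 larvae (-0.42 ± 0.04). The troponin I gene unc-27 had 1020.4, 1029.9 and 1019 TPM in itr-1 larvae, against 1366, 1337 and 1385 TPM in N2 larvae (-0.41 ± 0.04). Replicates differed by a few percent in both genes, and the strains did not overlap. Non-muscle actomyosin, which the study's title names, gave 15 rises and 6 falls among 46 (6 and 10 with scaling, 2 and 2 with the oocyte score). These shares, 32.6% and 13%, lay near the 29.8% and 11.8% of all genes. The filamin gene fln-2, which cross-links actin, had 44.9, 38.5 and 38.5 TPM in itr-1 larvae and 26.5, 28.4 and 24.6 TPM in N2 larvae (0.6 ± 0.07). The actin gene act-4, also on this list, was at -0.25 ± 0.04, with copies that may share reads. Whether act-4 fell in muscle or in other cells cannot be told from whole animals.

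Oocyte genes and most major sperm protein genes rose, beside the higher oocyte score of the itr-1 libraries, while other germ line lists had fewer calls. Of 28 tested oocyte and early embryo genes 28 rose (28 with median-of-ratios scaling and 28 without the libraries numbered 2), whereas 1 rise and 1 fall were left with their own mean as a term. The oocyte regulator gene lin-41 had 19, 29.1 and 18.7 TPM in itr-1 larvae, against 5.48, 9.6 and 5.95 TPM in N2 larvae (1.54 ± 0.2). The eggshell proteoglycan gene cpg-2 had 126, 268 and 106 TPM in itr-1 larvae and 20.2, 55.9 and 29 TPM in N2 larvae (2.22 ± 0.46), and the kinase gene mbk-2 of the oocyte-to-embryo transition was at 0.41 ± 0.08. The second replicate was the highest for all 3 genes in itr-1, and in N2 for lin-41 and cpg-2. Major sperm proteins gave 26 rises and 1 fall among 30 (26 and 1 with scaling, 1 and 1 with the oocyte score), and they summed to 0.402%, 0.53% and 0.383% of itr-1 transcripts, against 0.14%, 0.199% and 0.159% of N2 transcripts. One of them, msp-113, had 220.3, 291 and 203 TPM in itr-1 larvae and 58.6, 85.3 and 64.9 TPM in N2 larvae (1.76 ± 0.28). In 22 of the 30 genes the itr-1 libraries were the highest of all 12, against 5.58% of all genes. Other sperm genes gave 16 rises and 3 falls among 31 (13 and 4 with scaling, 1 and 3 with the oocyte score). The early spermatogenesis factor gene spe-44 was among the falls, with 15.1, 13.5 and 13.8 TPM in itr-1 larvae and 19.5, 21.9 and 21.2 TPM in N2 larvae (-0.53 ± 0.09). Germline genes of other stages gave 11 rises and 1 fall among 34 (4 and 3 with scaling, 0 and 2 with the oocyte score), with the P granule helicase gene glh-2 at 1.0 ± 0.19. The 32.4% of these genes that rose lay near the 29.8% of all genes, and 2.9% fell, against 11.8% of all genes. None of the 6 yolk protein genes was called by limma, and 0 had an unadjusted p under 0.05, at a median fold of 1.07. Of these vit-2 had 213, 1108 and 257 TPM in itr-1 larvae and 37.7, 247 and 83.7 TPM in N2 larvae (2.08 ± 0.95, limma adjusted p = 0.1), with the second replicate highest in each strain and the groups overlapping. The yolk result rested on the model and on single libraries. With scaling 0 rose and 0 fell, and with the oocyte score 0 rose and 3 fell, at a median of -2.87. With the replicate number as a term 3 rose, vit-2 among them (limma adjusted p = 0.00474). In a fit without the libraries numbered 2, 2 rose. The gene vit-2 passed without those libraries (2.04, limma adjusted p = 0.0143) and without N2 replicate 2 (2.78, limma adjusted p = 0.049), and was at -1.72 with the oocyte score (limma adjusted p = 0.0981).

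Cuticle collagen genes changed in both directions, with the adult strut collagens among the falls. Of all genes 29.8% rose and 11.8% fell. Of 12 collagen genes of the late L4 and adult cuticle, 4 rose and 8 fell (3 and 8 with scaling, 0 and 4 with the oocyte score). The strut collagen gene bli-1 of the adult cuticle had 208, 119.6 and 158 TPM in itr-1 larvae, against 419.7, 390.1 and 354 TPM in N2 larvae (-1.29 ± 0.15), and its partner bli-2 had 509, 333 and 411 TPM in itr-1 larvae and 1097, 1020.0 and 1035 TPM in N2 larvae (-1.35 ± 0.12). Both fell, with the itr-1 replicates more spread than those of N2. The collagen gene col-62, in contrast, had 153, 239 and 137 TPM in itr-1 larvae and 10.6, 50.9 and 18.3 TPM in N2 larvae (2.93 ± 0.46), a call lost with the oocyte score as a term (1.32). The 4 rises were col-7, col-19, col-62 and col-119, named after their values were seen, of which col-19 and col-119 are known adult-stage collagens. Over all cuticle collagens 64 rose and 39 fell among 135 (56 and 46 with scaling, 33 and 12 with the oocyte score). Among them col-39 had 444, 543 and 487 TPM in itr-1 larvae, against 77.4, 117 and 59.9 TPM in N2 larvae (2.57 ± 0.19), col-92 was at 1.76 ± 0.12 and col-94 at 1.63 ± 0.1. Moulting and hedgehog-related genes gave 29 rises and 41 falls among 105 (28 and 48 with scaling, 20 and 10 with the oocyte score). The ground-like gene grl-4 had 93.5, 98.1 and 104 TPM in itr-1 larvae and 19.7, 25.6 and 17.8 TPM in N2 larvae (2.19 ± 0.13), and the astacin protease gene nas-30 was at 1.62 ± 0.09.

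The abu and pqn genes, which encode glutamine-rich proteins of the pharyngeal cuticle among others, gave 31 rises and 7 falls among 63 (25 and 13 with scaling, 20 and 1 with the oocyte score). Of these 63 genes 49.2% rose and 11.1% fell, against 29.8% and 11.8% of all genes. The gene abu-6 had 22.1, 22.1 and 23.9 TPM in itr-1 larvae, against 3.74, 5.12 and 4.24 TPM in N2 larvae (2.15 ± 0.1), and abu-8 had 53.3, 56 and 61.4 TPM in itr-1 larvae and 9.8, 13.9 and 11.6 TPM in N2 larvae (2.19 ± 0.11). Their replicates lay close together and the strains far apart. Because many of these genes and collagens are near-identical copies, their single values are uncertain.

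Neuropeptide genes gave 51 rises and 4 falls among 119, beside the 29.8% of all genes that rose, although the counts were 23 and 10 with median-of-ratios scaling and 42 and 1 with the oocyte score. The neuropeptide-like gene nlp-67 had 8.47, 8.29 and 9.38 TPM in itr-1 larvae and 2.6, 3.2 and 3.05 TPM in N2 larvae (1.3 ± 0.1), and nlp-27, of an epidermal antimicrobial cluster, was at 1.63 ± 0.15. General neuronal genes gave 5 rises and 1 fall among 23 (1 and 2 with scaling, 4 and 0 with the oocyte score), with the prohormone convertase gene egl-3 at 0.48 ± 0.1. Their summed share was 0.0625%, 0.0584% and 0.0644% in itr-1 libraries and 0.0557%, 0.055% and 0.0523% in N2 libraries. Nuclear hormone receptor genes gave 57 rises and 7 falls among 166 (29 and 12 with scaling, 27 and 1 with the oocyte score), with nhr-74 at 11, 6.45 and 7.05 TPM in itr-1 larvae and 1.92, 1.52 and 2.22 TPM in N2 larvae (1.64 ± 0.19) and nhr-180 at 0.85 ± 0.1.

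By position, 24.5% of 1959 genes on the X chromosome rose and 15.3% fell, whereas on the autosomes 27.9% to 32.5% rose and 9.55% to 12.4% fell. Of the 14 tested genes of mitochondrial DNA, with its ribosomal RNAs, none rose by limma and 8 fell.

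Some genes were nearly absent from itr-1 larvae in a pattern that followed their position, and these were picked after their values were seen. On chromosome IV, where msp-19 lies 2414 kb from itr-1 itself, neighbouring genes were low or at 0 in itr-1 larvae. The gene F36H12.4 (WBGene00018120, chromosome IV, 5269103 to 5269626) was listed at 0, 0 and 0 TPM in itr-1 larvae, against 16.9, 17.5 and 22.3 TPM in N2 larvae. Its neighbour F36H12.5 was listed at 0, 0 and 0 TPM in itr-1 larvae and at 9.72, 15 and 12.4 TPM in N2 larvae, and the pseudogene WBGene00018127 at 0, 0 and 0 TPM in itr-1 larvae and 7.78, 10 and 8.13 TPM in N2 larvae. These 3 genes were listed at 0 in every itr-1 library. The kinase-family gene ttbk-2.1 had 1.88, 2.57 and 2.07 TPM in itr-1 larvae, against 10.7, 13.3 and 10.7 TPM in N2 larvae (-1.99 ± 0.22). Next to it F36H12.9 had 5.36, 6.4 and 4.28 TPM in itr-1 larvae, against 11.5, 12.4 and 12 TPM in N2 larvae (-1.04 ± 0.22). With msp-19, these genes span 5257031 to 5269626, and between them the pseudogene WBGene00003445 was higher in itr-1 larvae, at 5.11, 7.62 and 5.55 TPM, against 1.58, 2.7 and 1.9 TPM in N2 larvae. No flanking gene was called lower. Next to F36H12.9, the pseudogene WBGene00018125 had 2.22, 2.78 and 1.83 TPM in itr-1 larvae and 2.29, 4.77 and 3.96 TPM in N2 larvae (-0.48, limma adjusted p = 0.144). Beyond it F36H12.10 had 14.8, 12.7 and 14.3 TPM in itr-1 larvae and 11.5, 11.3 and 11.2 TPM in N2 larvae. On the other side F36H12.3 was at 0.71 (limma adjusted p = 0.0352) and slfl-4 at 0.17 (limma adjusted p = 0.2). The double mutant, which carries the same allele, had 12.9, 20.4 and 8.36 TPM of F36H12.4, against 15.7, 15.3 and 20.3 TPM in nuo-6 larvae. For msp-19 the double mutant had 119, 175 and 57.7 TPM, against 101, 121 and 126 TPM in nuo-6 larvae. The low values were thus found in the itr-1 strain and not in the double mutant.

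**Figure D3:**
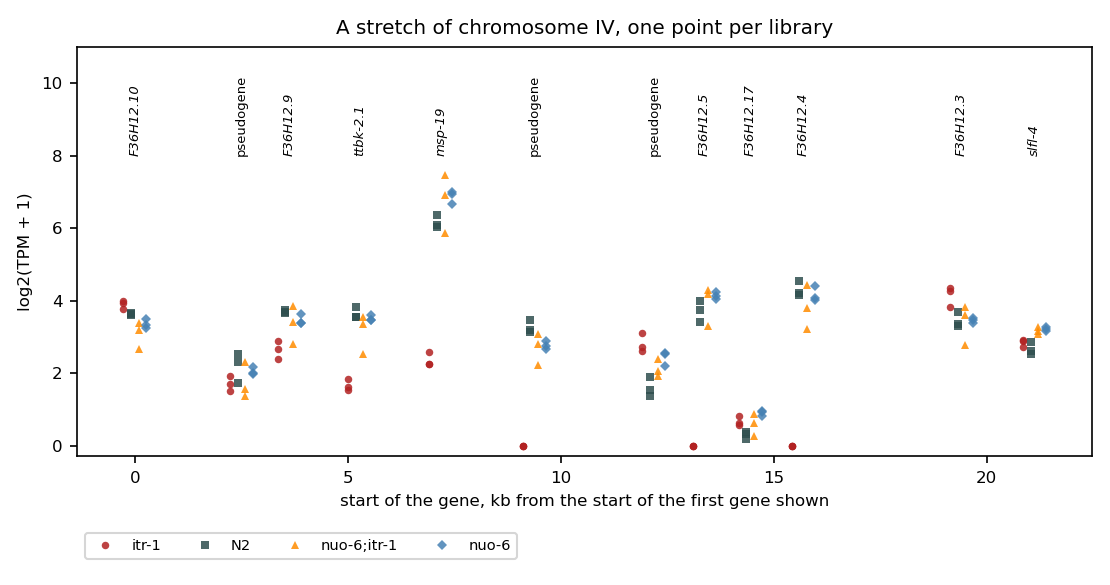
Levels of 12 genes around the chromosome IV stretch, as log2(TPM + 1) against the start of each gene in kb from the first gene shown, with 1 point for each library of the 4 strains. The itr-1 libraries lie at 0 for F36H12.4, F36H12.5 and 1 pseudogene and low for msp-19 and ttbk-2.1, while the libraries of the double mutant overlap those of N2 or nuo-6.

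Across the whole genome 191 genes were called, at least 4-fold different and without overlap, 157 higher and 34 lower, and 41 of them lay in 20 runs of neighbouring tested genes. Other strain-specific genes, also chosen after their values were seen, followed different patterns over the 4 strains. On chromosome V D1014.6 had 2.59, 3.65 and 3.39 TPM in itr-1 larvae, against 60.5, 63.2 and 60.6 TPM in N2 larvae. Its neighbour D1014.7 had 2.43, 2.73 and 3.43 TPM in itr-1 larvae, against 58.3, 58.2 and 55.9 TPM in N2 larvae. Both were under 1 TPM in every library of the double mutant and of nuo-6. BE0003N10.6 on chromosome III had 10.2, 14.6 and 12.6 TPM in itr-1 larvae and 223, 239 and 252 TPM in N2 larvae, with 0.684, 0.987 and 0.595 TPM in double mutant larvae and 1.18, 0.959 and 1.47 TPM in nuo-6 larvae. For these 3 genes N2 was high and all mutants low. Other genes were low in both strains with the itr-1 allele, with Y71G12B.18 at 3.67, 5.15 and 5.24 TPM in itr-1 larvae and 89.1, 88.9 and 84.7 TPM in N2 larvae, and at 1.66, 5.52 and 2.51 TPM in double mutant larvae and 55, 52.3 and 63.9 TPM in nuo-6 larvae. The genes F59C6.18 (-3.2 ± 0.27) and Y49G5A.1 (-2.43 ± 0.1) had the same pattern. Like skr-17, Y16B4A.2 was low in itr-1 alone, at 4.49, 2.72 and 2.91 TPM in itr-1 larvae and 41.8, 37.2 and 41.5 TPM in N2 larvae, with 45.3, 42 and 51 TPM in double mutant larvae and 33.1, 37.4 and 38.7 TPM in nuo-6 larvae.

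**Figure D4:**
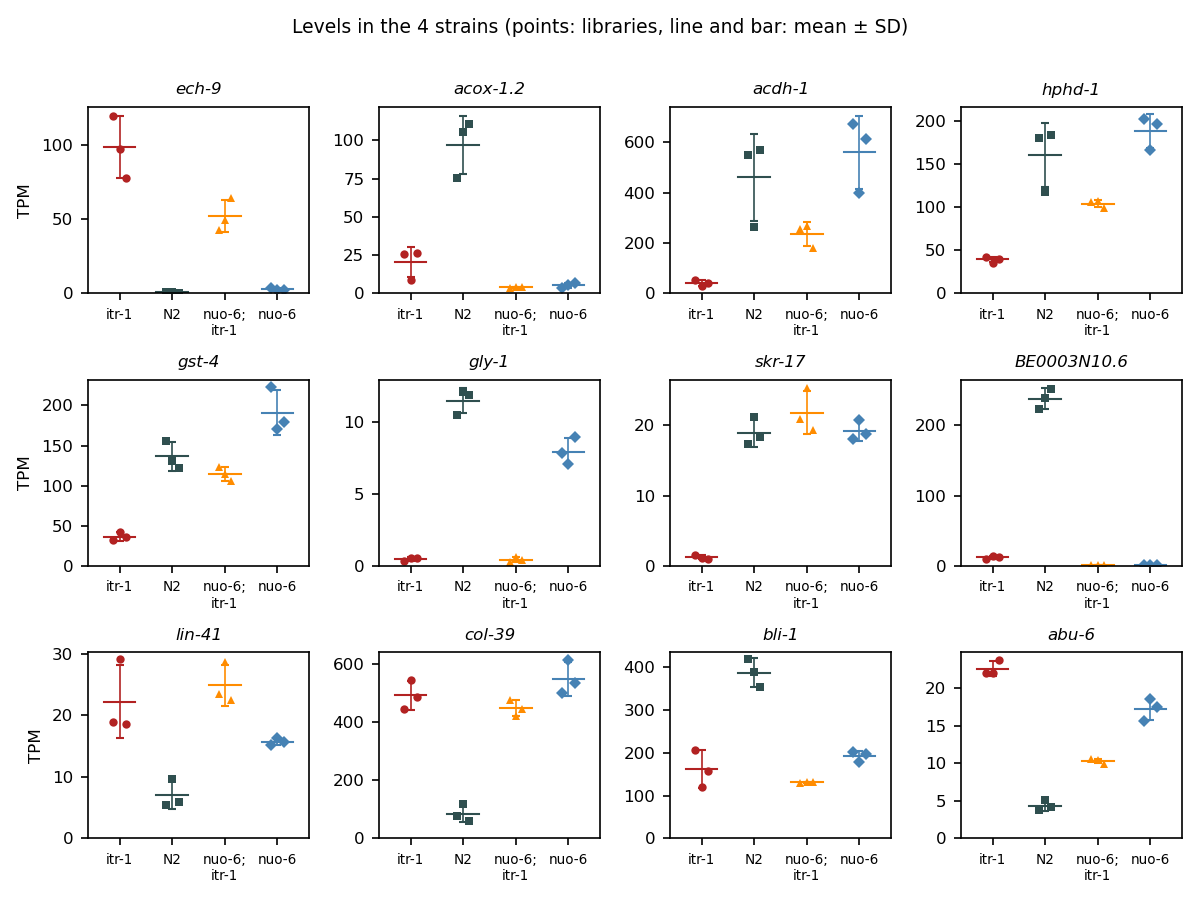
TPM of 12 named genes in the 4 strains, each panel starting at 0, with points for the 3 libraries and a line and bar for mean ± SD. ech-9 is high in both strains with the itr-1 allele, skr-17 is low in itr-1 alone, BE0003N10.6 is high in N2 alone, and col-39 is low in N2 alone.

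The same mutation was then read against nuo-6 in the double mutant, a comparison that shares no library with itr-1 against N2. There 1368 genes rose (9.49%) and 795 fell (5.51%). Of the 4292 rises in itr-1, 788 rose in the double mutant (18.4% of the itr-1 rises and 57.6% of the double mutant's), where 9.49% of all genes rose. Of the 1701 falls, 392 fell there (23% of the itr-1 falls and 49.3% of the double mutant's), where 5.51% of all genes fell. Opposite calls were few, with 68 genes up in itr-1 and down in the double mutant and 21 the reverse. The difference of the 2 folds itself passed limma for 1771 genes (12.3%), with the fold of the double mutant lower in 1231 (8.54%) and higher in 540 (3.75%). Leaving out 1 library at a time gave 576 to 1407 rises and 425 to 850 falls in the double mutant, and 632 to 1827 lower and 195 to 727 higher differences.

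Several of the genes with large rises also rose in the nuo-6 background, ech-9, ugt-18, acox-1.5 and far-3 (1.98 ± 0.17) among them. The desaturase gene fat-5 was at 1.06 ± 0.34 there (limma adjusted p = 0.0605) and the lipase gene lips-17 at 0.02 ± 0.17 (limma adjusted p = 0.936), so that neither passed. For ech-9 the double mutant had 42.4, 49.6 and 64 TPM and nuo-6 had 3.89, 2.1 and 2.29 TPM (3.83 ± 0.21, limma adjusted p = 2.67e-06). For ugt-18 the values were 45.6, 50.3 and 66.9 TPM in double mutant larvae and 3.06, 2.13 and 1.95 TPM in nuo-6 larvae (4.03 ± 0.16), and acox-1.5 was at 2.16 ± 0.15. For ech-9, ugt-18 and acox-1.5 the groups did not overlap. The defence genes clec-70 (2.34 ± 0.19), clec-60 (3.23 ± 0.19), spp-12 (3.29 ± 0.24) and spp-9 (4.26 ± 0.2) rose as well, whereas ilys-3 was at 0.39 ± 0.31 (limma adjusted p = 0.421). Among falls, gly-1 (-2.66 ± 0.12), gst-10 (-1.27 ± 0.15), sysm-1 (-2.31 ± 0.27) and acdh-1 (-1.24 ± 0.32) fell in this background too. The levels of acdh-1 were 255, 268 and 179.9 TPM in double mutant larvae and 674, 397 and 612 TPM in nuo-6 larvae, so that the 2 groups did not overlap. The oxidase gene acox-1.2 was low in both, at 3.43, 3.92 and 4.32 TPM in double mutant larvae and 3.5, 5.75 and 6.83 TPM in nuo-6 larvae (-0.35 ± 0.35, limma adjusted p = 0.523).

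The lists gave the following counts in the nuo-6 background, where 9.49% of all genes rose and 5.51% fell. The difference of the folds passed for 12.3% of all genes. Of the 7 propionate shunt genes 4 fell in the double mutant, and the difference of the folds passed for 4 of the 7, in each with the double mutant's fold above that of itr-1. Of these acdh-1 and hphd-1 (-0.84 ± 0.15) fell in the double mutant, whereas alh-8 was at -0.02 ± 0.06 and nhr-68 at -0.21 ± 0.2 and neither passed there. Complex I genes gave 0 rises and 31 falls, mitochondrial ribosome genes 0 and 50, and muscle sarcomere genes 0 and 29. The difference of the folds was lower for 3 complex I, 6 mitochondrial ribosome and 7 sarcomere genes and higher for none of them by limma. Peroxisomal genes gave 14 rises and 2 falls, proteases 9 and 1, and nuclear hormone receptors 37 and 0. The defecation list gave 10 rises and 0 falls, with nhx-2 at 0.55 ± 0.08 and dsc-4 at 0.53 ± 0.08. None of the 28 oocyte genes and none of the 30 major sperm proteins was called there by limma, with 1 and 3 at an unadjusted p under 0.05, beside oocyte scores of 4.83, 5.56 and 4.28 in double mutant libraries and 4.47, 4.69 and 4.55 in nuo-6 libraries. For the sperm proteins the difference of the folds passed in 24 lower and 1 higher of 30 genes.

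In some genes the N2 libraries stood apart from the 9 mutant libraries. N2 was below all 9 mutant libraries for 22% of all genes and above them for 8.52%. It was below them in 27 of 63 abu and pqn genes, 50 of 135 collagens, 51 of 119 neuropeptides, 67 of 166 hormone receptors and 19 of 28 oocyte genes. It was above them in 36 of 105 moulting genes, 33 of the 135 collagens and 8 of 12 late cuticle genes. The same held for 25 of 78 cytosolic ribosomal protein genes and 13 of 33 proteasome genes. The gene col-39, for instance, had 475, 422 and 447 TPM in double mutant larvae and 500.0, 613 and 533 TPM in nuo-6 larvae, close to its itr-1 levels and far above those of N2.

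**Figure D5:**
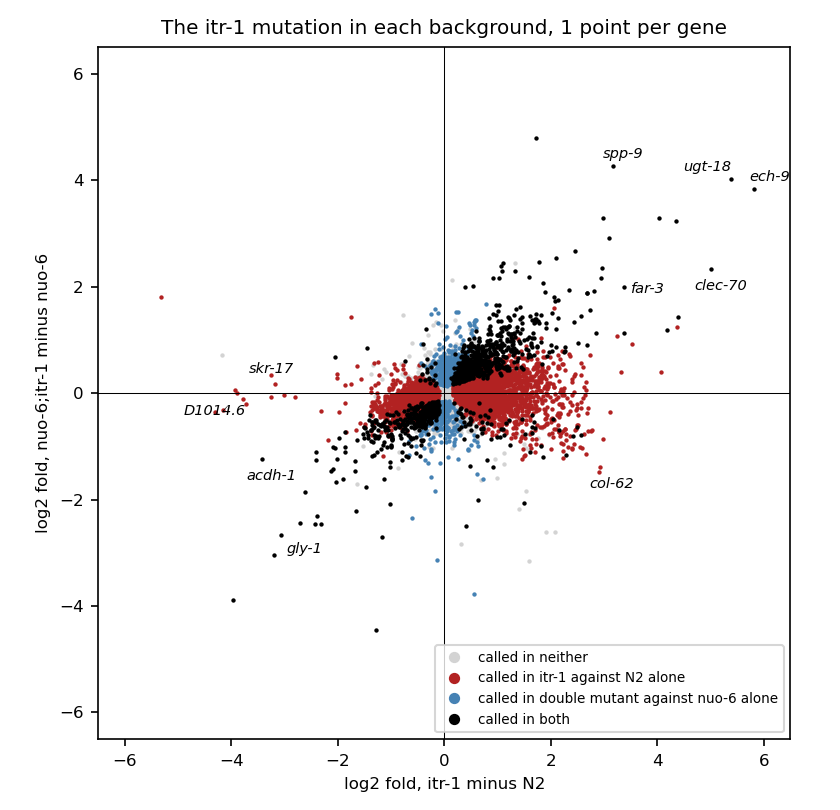
Log2 fold of itr-1 minus N2 (horizontal) against that of nuo-6;itr-1 minus nuo-6 (vertical), with 1 point for each of the 14418 genes, coloured by the comparison in which it was called. The largest rises, ech-9 and ugt-18, lie high on both axes, while skr-17 and D1014.6 lie near 0 on the vertical axis.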

How the data were processed

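The table held TPM, transcripts scaled to a fixed library total, for each gene and library, with 1 column for each of the 12 libraries, as the authors deposited it, and read counts were not used here. Per the labels' protocols, libraries were stranded, selected for polyadenylated RNA and made from samples with an RNA integrity number of 10. Per the submitters' processing notes the genome build was WBcel235, and no source used here names the software that aligned or counted the reads. TPM sums to the same total in every library, so a large change in abundant genes shifts all others, and sequencing depth is unknown. All 46926 genes of the table were matched to the annotation by their identifiers.

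Genes at or above 1 TPM in 3 or more of the 6 itr-1 and N2 libraries entered a model of log2(TPM + 1) with 4 groups of 3 libraries, fitted with limma 3.58.1 in R 4.3.3 (empirical Bayes with trend, 8 residual degrees of freedom) and adjusted by Benjamini-Hochberg over 14418 genes. The contrasts were itr-1 minus N2, double mutant minus nuo-6, and the difference of the 2. The fit was tested on simulated data. Gene lists were described by counts, without a set test. Genes named were itr-1, the 12 largest rises and 12 largest falls among called genes with a standard name, a mean of at least 5 TPM in the higher strain and no overlap, at most 2 of a family, and from each list the 1 to 3 genes with the smallest adjusted p. A further set was chosen after values were seen, as the text says at each place. The members and lists were chosen with earlier results of these data known. The list of mitochondrial DNA genes was redefined by chromosome once the table's gene names were seen. The alternatives covered pseudocount, filter, scaling, model, replicate block, oocyte score and single libraries.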

Additional observations from a re-analysis of the deposited data

Results flagged for a closer look

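For 1771 genes the fold of the double mutant over nuo-6 differed from that of itr-1 over N2 by limma's test of the difference. The values that follow are that difference on the log2 scale, the double mutant's fold minus the itr-1 fold, for genes named above.

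In genes that had risen in itr-1, negative values mean a smaller rise, none, or a fall in the nuo-6 background. Among fat metabolism and conjugation genes these were ech-9 at -1.99, acox-1.5 at -0.79, fat-5 at -2.19, far-3 at -1.4, lips-17 at -2.15, ugt-18 at -1.36 and cyp-32A1 at -1.23. In defence and digestion they were clec-70 at -2.66, clec-71 at -1.39, clec-60 at -1.12, ilys-3 at -2.93, fipr-9 at -2.54, pals-6 at -1.11, asp-12 at -2.98 and swt-7 at -0.67, while spp-9 rose more in the nuo-6 background, at 1.09.

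Cuticle and secreted protein genes gave abu-6 at -2.83, abu-8 at -2.14, col-39 at -2.86, col-62 at -4.32, col-92 at -2.08, col-94 at -1.51, grl-4 at -2.11, nas-30 at -1.62, nspe-7 at -3.13, nlp-27 at -1.63 and nlp-67 at -1.22. Of these abu-6 was called lower in the double mutant than in nuo-6 (-0.69 ± 0.1, limma adjusted p = 0.00143). The yolk gene vit-2, not called in itr-1 itself, was at -4.69, the sperm gene msp-113 at -1.83 and the small heat shock gene sip-1 at -2.02. Genes of signalling, structure and metabolism gave smaller negative values, with hsp-43 at -1.47, nnt-1 at -1.0, hxk-1 at -0.86, gtl-1 at -0.68, tpa-1 at -0.56, lfe-2 at -0.32, fln-2 at -0.39 and ifb-2 at -0.53.

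In genes that had fallen in itr-1, positive values mean a smaller fall, none, or a rise in the nuo-6 background. For the propionate shunt they were acdh-1 at 2.18, hphd-1 at 1.13, nhr-68 at 1.08 and alh-8 at 0.55, and acox-1.2 was at 1.97. Detoxification genes gave gst-4 at 1.15, gst-10 at 1.14, gst-13 at 0.68, gstk-1 at 1.09, cyp-14A2 at 0.86 and dhs-25 at 0.5. The adult collagens bli-1 and bli-2 were at 0.74 and 0.69, cpr-6 at 0.65 and manf-1 at 0.28. The gene dod-17 was at -0.46, a larger fall in the nuo-6 background.

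The genes that were low in the itr-1 strain but not in the double mutant gave msp-19 at 3.67, F36H12.4 at 3.95, F36H12.5 at 3.51, ttbk-2.1 at 1.62, WBGene00018127 at 3.2, skr-17 at 3.35 and Y16B4A.2 at 3.59. The values of F36H12.4, F36H12.5 and WBGene00018127, listed at 0 in itr-1, depend on the pseudocount. Those high in N2 alone gave D1014.6 at 3.89, D1014.7 at 3.98 and BE0003N10.6 at 3.84.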

How the results depend on the processing

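Of 127 genes named, 104 kept their direction and their side of the threshold under all 20 alternatives, and 119 did so apart from the oocyte score, under which 18 calls were lost. Of 2531 gene values 1 changed sign, that of vit-2, not called, at -1.72 with the oocyte score against 2.08, while 39 lost their call and 7 gained one. Against the 4292 rises and 1701 falls in itr-1, a minimum of 2-fold left 970 and 216, median-of-ratios scaling gave 2600 and 3145, quantile normalization 2189 and 3120, and the oocyte score 1454 and 561. In the double mutant, where 1368 rose and 795 fell, scaling gave 764 rises and the oocyte score 2222 rises and 1430 falls. The difference of the folds, with 540 higher and 1231 lower, gave 945 higher with scaling, 1102 higher with quantile normalization, 179 higher and 638 lower with the oocyte score, and 324 higher without the libraries numbered 2, an alternative chosen after seeing the data. Genes called in both backgrounds were 376 up and 732 down with scaling and 410 up with quantile normalization, against 788 up and 392 down. The cause of these shifts was not tested.

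Leaving out 1 library at a time gave 2792 to 4448 rises and 1270 to 1707 falls in itr-1, the fewest rises without N2 replicate 1. In the double mutant it gave 576 to 1407 rises and 425 to 850 falls, with 687 rises without nuo-6 replicate 2, 576 and 425 without nuo-6 replicate 3, 625 and 493 without double mutant replicate 1 and 704 rises without double mutant replicate 3. For the difference of the folds it gave 195 to 727 higher and 632 to 1827 lower. The counts of higher and lower were 244 and 674 without N2 replicate 1, 280 and 810 without N2 replicate 3, 195 and 632 without nuo-6 replicate 2, 223 and 658 without nuo-6 replicate 3, and 234 and 781 without double mutant replicate 1. The higher count was 328 without itr-1 replicate 2 and 298 without double mutant replicate 3.

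The shared replicate numbers were not taken as pairs in the main fit, since not every library correlated best with its own number. Same-numbered itr-1 and N2 libraries correlated in their deviations at 0.04, 0.43 and 0.09. The value of 0.43 was that of the libraries numbered 2. These also had the highest oocyte score of each strain (itr-1 5.84, N2 4.13, double mutant 5.56, nuo-6 4.69). Whether same-numbered libraries shared a batch was not tested. A fit with the replicate block called vit-2 (limma adjusted p = 0.00474), with 3 yolk rises and 17 germline rises, and it gave 4912 rises and 1848 falls in itr-1, 1682 and 932 in the double mutant, 826 higher and 1874 lower differences, and 1062 up and 472 down in both backgrounds. Of 1960 counts of list members, 310 moved by over 1.5 times. Depth is unknown, so that for genes near 0 TPM no limit of detection can be given.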
